A study of Mus musculus with 6 samples.

Results

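Mitochondrial fatty acid oxidation and its regulators are described here through 34 genes, taken from a list of names that was drawn up with earlier results of these data known. They run from fatty acid activation and the carnitine shuttle, through the enzymes of the oxidation spiral, to the thioesterases, the ketone body enzymes and the PPAR and PGC-1 regulators. All 34 were found among the 54532 genes of the deposited table, 1 row each, and 32 passed the filter on low counts. The 2 that did not were Cpt1b and Ppara, whose reads are given below.

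RNA was sequenced from 6 samples of wild-type 3T3 cells, a mouse fibroblast line that can be turned into fat cells, whose labelled cell type is adipocyte. Of these, 3 received 200 µM baicalin, a flavone glucuronide of Scutellaria roots, and 3 received DMSO, the solvent. The sources used here do not give the subline, the differentiation protocol or the treatment time. They also do not say whether replicates are separate cultures, and p-values therefore measure a spread between samples that may be technical.

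Inside a mitochondrion, fatty acids are shortened from the carboxyl end in a repeating spiral of 4 reactions, which releases acetyl-CoA and passes electrons to the respiratory chain. Long chains must first be joined to CoA and carried across the inner membrane as carnitine esters, and this entry step is the classical point of control. Fat cells oxidise little fat beside what they store, and the PPAR nuclear receptors with their PGC-1 coactivators are the best known transcriptional drivers of the pathway.

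Library totals lay between 17598666 and 18326874 counts in baicalin and between 16730594 and 17711950 counts in DMSO, and 3 counts corresponded to at most 0.179 CPM before scaling. CPM are reads scaled to a common library total, and levels below are in CPM with TMM factors applied unless another unit is named. Of 13728 genes tested with edgeR's quasi-likelihood test, 4618 were higher and 4676 lower in baicalin at a Benjamini-Hochberg adjusted p under 0.05, the threshold for every call that follows. Of 16 markers of mature fat cells, 10 were tested, of which 2 were higher and 7 lower in baicalin, and their summed level was 1173 to 1223 CPM in baicalin and 2382 to 2587 CPM in DMSO. Lep, Slc2a4, Cfd, Adrb3 and Acvr1c were at or near 0 in both groups, and Adipoq averaged 0.136 CPM in baicalin and 1.66 CPM in DMSO. Other markers on that list were abundant, with Lpl at 490.3 CPM in baicalin and 1441 CPM in DMSO, Fabp4 at 298 CPM in baicalin and 429 CPM in DMSO, and Plin4 at 151 CPM in baicalin and 428 CPM in DMSO, and the 2 that were higher were the lipases Lipe and Pnpla2. Of 12 preadipocyte and fibroblast markers, 10 were tested, of which 4 were higher and 6 lower, with sums of 12152 to 12540.0 CPM in baicalin and 15769 to 16581 CPM in DMSO. The largest part of those sums was the collagen gene Col1a2, at 5416 CPM in baicalin and 7952 CPM in DMSO. Ly6a and Thy1 rose 3.75-fold and 2.13-fold, while Pdgfra and Dlk1 fell 2.18-fold and 2.22-fold. Of 13 brown fat markers 2 were tested and neither was called, and Ucp1, Tbx1 and Prdm16 stood at or near 0. Of 12 muscle markers 2 were tested and both were higher, at sums of 17.4 to 18.5 CPM in baicalin and 7.79 to 10.1 CPM in DMSO, while Ckm, Myod1 and Myog had no read. Of 8 neuronal markers 1 was higher and 1 lower of 2 tested, and their sums were 9.88 to 11.3 CPM in baicalin and 14.98 to 16.74 CPM in DMSO. Of 8 macrophage markers 4 were tested and 2 were higher, at sums of 104.5 to 105.4 CPM in baicalin and 24.2 to 27.3 CPM in DMSO, mostly from Cd14, while Ptprc and Adgre1 were at or near 0. Whether the marker shifts have a part in the results on fatty acid oxidation was not tested, and in bulk RNA fewer cells of a type and less RNA per cell cannot be told apart.

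Across the pathway most genes shifted by small amounts and in both directions. Of the 32 tested members, 15 were higher (46.9%), 11 were lower (34.4%) and 6 were not called (18.8%), where of all tested genes 33.6% were higher and 34.1% lower, 67.7% in either direction. Under TMM scaling the share of lower members was thus near that of all genes, and that of higher members somewhat above it. The excess of higher members was not seen with library size alone, where 8 of the 32 members and 3472 of the 13728 genes were higher. The median log2 fold change, baicalin over DMSO, was 0.03 over the members and 0.001 over all tested genes. By the median, changes were smaller in size than over all tested genes, at 0.26 on the log2 scale over the members and 0.38 over all genes. Members and all genes were not matched by level in these comparisons, and the part that level has in them was not tested. Of the 26 called members 19 moved by less than 0.5 on the log2 scale, and 3 (9.38%) moved at least 2-fold, against 15.0% of all tested genes. These 3 were Ppargc1a and Acadm, which fell, and Acot1, which rose.

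**Figure D1:**
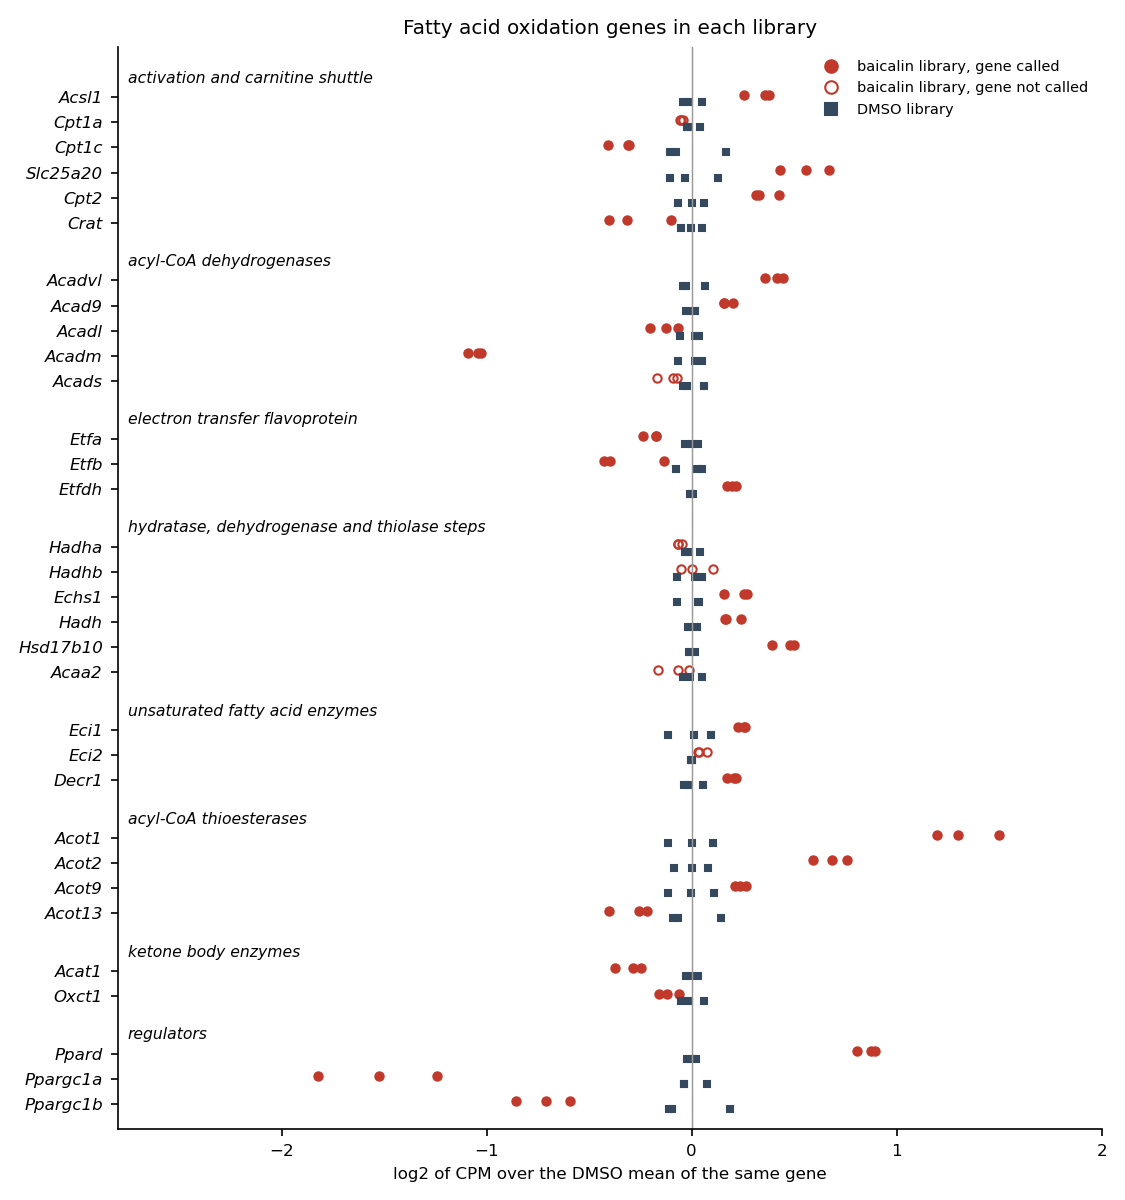
Level of each of the 32 tested genes in every library, as log2 of its CPM over the DMSO mean of that gene, grouped by role (circles, 3 baicalin libraries, open where the gene was not called; squares, 3 DMSO libraries). Acot1 lies farthest to the right and Ppargc1a and Acadm farthest to the left, while most other genes lie within 0.5 of 0.

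No overlap between the groups was seen in 30 of the 32 tested members (93.8%), 16 with baicalin above and 14 with baicalin below, where this held for 70.2% of all tested genes (35.2% above and 35.0% below). The 2 whose groups overlapped were Hadhb and Acaa2. Levels were not matched between the members and all genes here either. Summed over all 34 genes, the level was 2733, 2658 and 2680 CPM in the baicalin libraries, against 2693, 2663 and 2631 CPM in the DMSO libraries, and the groups overlapped. Without Acadm the other 33 genes summed to 2609 ± 40.0 CPM in baicalin and 2494 ± 24.2 CPM in DMSO (SD, n = 3 each), with no overlap and a ratio of 1.05. Acadm was left out because of its fall in these same data, so that ratio had to come out higher than with all 34 genes. Much of the remaining difference lay in the regulator Ppard, at 168 CPM in baicalin and 92.6 CPM in DMSO.

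The scaling of the libraries bears on changes of this size. With library size alone in place of TMM factors the median of all genes moved to -0.13 on the log2 scale, 3472 genes were higher and 5811 lower, and the members split into 8 higher and 15 lower. The calls of Acad9, Acot9, Decr1, Echs1, Eci1, Etfdh and Hadh were lost in that fit, and Cpt1a, Acads, Hadha and Acaa2 were called lower. With trends on exon length and GC removed from each library, 15 members were higher and 13 lower, with Hadhb now called higher (log2 fold change 0.19), Acads (-0.37) and Acaa2 (-0.36) called lower, and Eci1 no longer called. Of all genes 4552 were higher and 4312 lower in that fit, so the share of lower members was also above that of all genes there. The log2 fold changes of Acsl1 (0.54), Etfdh (0.35), Acad9 (0.33), Etfb (-0.61) and Acot13 (-0.49) were over 1.5 times as large there as the values given below, and smaller values are given beside the members they concern. All changes are given relative to the TMM scaling.

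**Figure D2:**
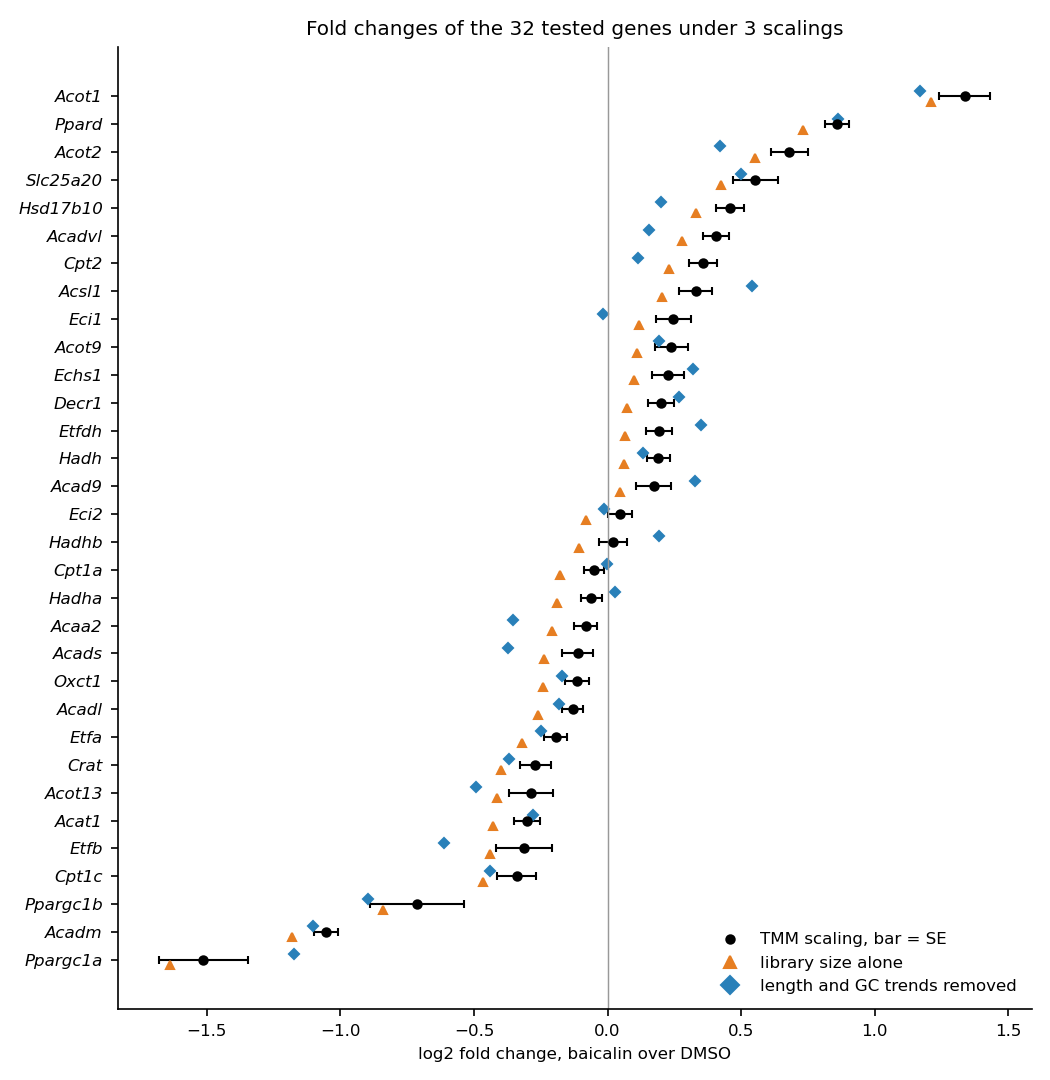
Log2 fold change, baicalin over DMSO, of the 32 tested genes under TMM scaling (black circles, bars are the SE), library size alone (orange triangles) and with the trends on exon length and GC removed (blue diamonds). The genes run from Acot1 at the top (1.34 with TMM) to Ppargc1a at the bottom (-1.51), and Eci1, Eci2, Hadha and Hadhb change sign between the 3 fits.

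The regulators included some of the largest changes. Ppargc1a (ENSMUSG00000029167, chromosome 5, 51454250 to 51567726, minus strand, coordinates from GENCODE M21 on GRCm38, the assembly of mm10) encodes PGC-1alpha, a coactivator that drives mitochondrial biogenesis and fatty acid oxidation in brown fat and muscle. Its transcript was rare, with 59, 42 and 50 reads in the baicalin libraries, against 163, 143 and 149 in the DMSO libraries. All 3 baicalin libraries lay far below the lowest DMSO library. The level was 2.94 ± 0.589 CPM in baicalin and 8.38 ± 0.380 CPM in DMSO (SD, n = 3 each), a 2.85-fold fall (log2 fold change -1.51, SE 0.17, adjusted p = 1.59e-11). It was -1.17 with length and GC trends removed and -0.65 on the log2(FPKM + 1) scale, a scale that understates changes of low genes.

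Ppargc1b (ENSMUSG00000033871), its relative PGC-1beta, had 57, 55 and 64 reads in baicalin, against 96, 112 and 96 in DMSO. Every baicalin library was again below every DMSO library. At 3.42 ± 0.310 CPM in baicalin and 5.61 ± 0.678 CPM in DMSO it fell 1.64-fold (log2 fold change -0.71, SE 0.18, adjusted p = 3.63e-04), and its log2 fold change was -0.37 on the log2(FPKM + 1) scale. The ratio of Ppargc1a to Ppargc1b reads within a library had a geometric mean of 0.853 in baicalin and 1.5 in DMSO, with no overlap between the groups. The exact two-sided permutation test gave p = 0.1, the smallest that 3 against 3 libraries allow, and an adjusted p of 0.144 over the 13 ratios compared.

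Ppard (ENSMUSG00000002250, chromosome 17, 28232700 to 28301474, plus strand), the broadly expressed PPAR isoform that responds to fatty acids, moved the other way. It stood at 172, 162 and 170.0 CPM in the baicalin libraries, against 91.4, 92.6 and 93.9 CPM in the DMSO libraries. The lowest baicalin library was well above the highest DMSO library. The rise was 1.81-fold (log2 fold change 0.86, SE 0.04, adjusted p = 5.97e-24). Ppara, the isoform that governs fatty acid oxidation in liver, was hardly transcribed and was not tested, with 9, 6 and 3 reads in baicalin and 8, 4 and 4 reads in DMSO.

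The promoters of Ppargc1a and Ppard are shown because these regulators moved in opposite directions. Sequences are RefSeq's on GRCm38.p6, from 250 bases before to 50 after the gene start, 5′ to 3′ on the gene's strand, at chr5:51567676-51567975 (minus strand) and chr17:28232504-28232803 (plus strand). Capitals mark matches to the searched motifs, here the half-site of a cAMP response element (TGACG, on either strand) in Ppargc1a and the core of an antioxidant response element (TGACNNNGC), which holds that same half-site, in Ppard.
Ppargc1a: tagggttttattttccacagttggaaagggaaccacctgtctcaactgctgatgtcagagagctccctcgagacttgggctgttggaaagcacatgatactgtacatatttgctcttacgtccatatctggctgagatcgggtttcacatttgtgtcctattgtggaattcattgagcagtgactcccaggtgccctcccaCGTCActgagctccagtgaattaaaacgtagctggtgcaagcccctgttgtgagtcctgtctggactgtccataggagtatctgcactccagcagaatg
Ppard: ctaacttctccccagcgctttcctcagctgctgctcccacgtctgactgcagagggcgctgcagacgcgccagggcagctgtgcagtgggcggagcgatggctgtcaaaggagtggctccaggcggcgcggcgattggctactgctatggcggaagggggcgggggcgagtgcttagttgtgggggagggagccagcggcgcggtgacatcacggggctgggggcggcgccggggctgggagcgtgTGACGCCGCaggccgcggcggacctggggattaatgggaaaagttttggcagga

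Of the 34 genes 26 had a promoter in the RefSeq table, 27 promoters in all, and 8 motifs were searched on both strands. The full PPAR element, AGGTCA repeated after 1 free base, was in 0 of the 27 and in 0.0396% of all 32851 promoters, and the ERR element TCAAGGTCA in 0 and in 0.423%. Both full elements are so rare over all promoters that 0 of 27 says nothing about these genes. The single nuclear receptor half-site AGGTCA, which is part of both, was in 5 (18.5%), those of Acadm, Acadvl, Cpt1a, Cpt1c and Echs1, and in 16.3% of all promoters. TGACG was in 7 (25.9%) and in 20.8% of all, the full TGACGTCA in 0 and in 1.79%, and TGACNNNGC in 1, that of Ppard, and in 12.4%. The NRF1 site, GCGCA followed directly by its reverse complement TGCGC, was in 2, those of Etfdh and Ppara, and in 0.971% of all, and the E-box CACGTG in 0 and in 7.15%. The shares with the half-sites are thus near those of all promoters, and these letters within 300 bases of sequence say nothing of whether a factor binds.

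Activation and the carnitine shuttle did not move as a unit. Of 6 tested members 3 were higher, 2 lower and 1 was not called, and their summed level, Cpt1b included, was 536 ± 12.0 CPM in baicalin and 536 ± 3.30 CPM in DMSO (SD, n = 3 each). Cpt1a (ENSMUSG00000024900, chromosome 19, 3322334 to 3385733, plus strand) encodes the outer membrane carnitine palmitoyltransferase that malonyl-CoA inhibits. It had 286, 289 and 287 CPM in the baicalin libraries, against 293, 306 and 294 CPM in the DMSO libraries. The baicalin libraries were all lower, by a margin too small for a call (log2 fold change -0.05, 95% interval -0.13 to 0.02, adjusted p = 0.226).

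The inner membrane steps rose. Slc25a20, the carnitine-acylcarnitine translocase, had 29.3, 24.8 and 27.1 CPM in baicalin, against 20.1, 18.0 and 17.1 CPM in DMSO, a 1.47-fold rise (log2 fold change 0.55, SE 0.08, adjusted p = 9.63e-08). Cpt2, which hands the acyl group back to CoA in the matrix, had 73.1, 68.2 and 67.4 CPM in baicalin, against 56.6, 54.4 and 51.9 CPM in DMSO, a 1.28-fold rise (adjusted p = 5.23e-08). Both were higher in every baicalin library, while the log2 fold change of Cpt2 was 0.36, and 0.11 with length and GC trends removed. The ratio of Cpt1a to Cpt2 reads was 4.13 in baicalin and 5.48 in DMSO (geometric means of 3 libraries), with no overlap (exact permutation p = 0.1, adjusted 0.144).

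Acsl1, the long-chain acyl-CoA synthetase of fat and muscle, averaged 47.5 ± 2.18 CPM in baicalin and 37.7 ± 1.25 CPM in DMSO and rose 1.26-fold. Cpt1c, a brain form with little transferase activity, was lower at 29.1 ± 1.17 CPM in baicalin and 36.9 ± 3.91 CPM in DMSO (log2 fold change -0.34). Crat, which swaps acetyl groups between CoA and carnitine, was lower at 75.3 ± 8.20 CPM in baicalin and 90.6 ± 3.21 CPM in DMSO (log2 fold change -0.27, SD and n = 3 each), with 1 baicalin library, at 84.4 CPM, close to the lowest DMSO library at 87.6 CPM, and its call was lost on log2(FPKM + 1) with no filter (adjusted p = 0.0688). Its exons overlap 59 bases of Dolpp1 on the opposite strand, which had 10.9% as many reads and was not called. The muscle form Cpt1b had 1, 1 and 2 reads in baicalin and 6, 1 and 2 reads in DMSO and was not tested.

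Among the acyl-CoA dehydrogenases, which open each turn of the spiral according to chain length, the fall of Acadm stood out. Acadm (ENSMUSG00000062908, chromosome 3, 153922357 to 153944632, minus strand), the medium-chain enzyme, had 79.3, 82.0 and 82.8 CPM in the baicalin libraries, against 175, 171 and 161 CPM in the DMSO libraries. Each baicalin library held about the same level, and all lay far below the lowest DMSO library. The fall was 2.08-fold (log2 fold change -1.05, SE 0.04, adjusted p = 3.34e-27), and it ranged from -1.18 to -1.01 over the 17 alternative settings.

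The Acadm promoter is shown because this gene had the largest fall among the enzymes. It lies at chr3:153944594-153944893 (minus strand, GRCm38.p6), with capitals on a nuclear receptor half-site (TGACCT, the reverse complement of AGGTCA) and a TGACG half-site read on the other strand.
Acadm: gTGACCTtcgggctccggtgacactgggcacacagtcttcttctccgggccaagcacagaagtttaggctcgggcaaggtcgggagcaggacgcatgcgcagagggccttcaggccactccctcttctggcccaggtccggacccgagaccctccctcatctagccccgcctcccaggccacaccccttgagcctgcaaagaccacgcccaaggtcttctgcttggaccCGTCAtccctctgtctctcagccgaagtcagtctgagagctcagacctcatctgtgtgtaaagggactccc

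The neighbouring chain lengths differed from Acadm in direction or size. Acadl, the long-chain enzyme, had 253, 231 and 243 CPM in baicalin, against 272, 268 and 255 CPM in DMSO, a small fall (log2 fold change -0.13, SE 0.04, adjusted p = 3.59e-03) that lost its call without baicalin replicate 2 (adjusted p = 0.106) and in 4 other settings, those on FPKM and the one with no count filter (up to adjusted p = 0.136). Acads, the short-chain enzyme, averaged 46.1 ± 1.64 CPM in baicalin and 49.7 ± 1.86 CPM in DMSO and was not called (log2 fold change -0.11, 95% interval -0.23 to 0.003, adjusted p = 0.0869). Acad9, which also serves in the assembly of respiratory complex I, was higher at 38.8 ± 0.693 CPM in baicalin and 34.4 ± 0.601 CPM in DMSO (log2 fold change 0.17, adjusted p = 0.0174), and it was not called once DMSO replicate 1 was left out (adjusted p = 0.0557).

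Within a library, the ratio of Acadm to Acadl reads had a geometric mean of 0.336 in baicalin and 0.636 in DMSO, a difference of -0.92 on the log2 scale. The 3 DMSO libraries lay within -0.66 and -0.64 on the log2 scale, and the baicalin libraries at -1.68, -1.49 and -1.55, so that no library of one group reached the other (exact permutation p = 0.1, adjusted 0.144). The ratio of Acads to Acadl was 0.190 in baicalin and 0.188 in DMSO, and those groups overlapped. Summed over the 5 dehydrogenases, the level was 497 ± 12.3 CPM in baicalin and 585 ± 14.5 CPM in DMSO, a ratio of 0.850. Most of that difference lay in Acadm, at 81.3 CPM in baicalin and 169 CPM in DMSO, while Acadvl and Acad9 were counted higher.

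**Figure D3:**
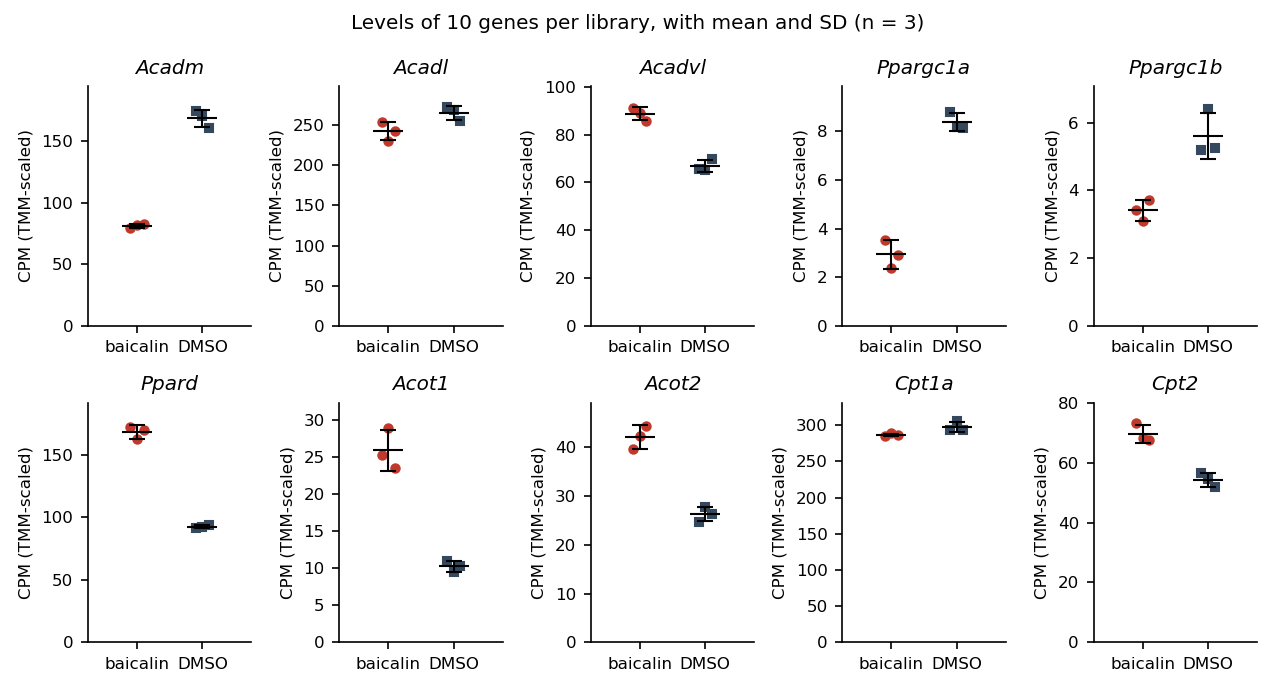
TMM-scaled CPM of 10 genes in each library (circles, baicalin; squares, DMSO; bars, mean and SD of n = 3), each panel with its own axis from 0. Acadm and Ppargc1a lie lower and Ppard, Acot1 and Acot2 higher in all 3 baicalin libraries, while the Cpt1a groups lie close together at 287 and 297 CPM.

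Acadvl, the very-long-chain enzyme, was counted at 91.2, 89.2 and 85.7 CPM in baicalin, against 65.7, 65.0 and 69.9 CPM in DMSO (1.33-fold higher, adjusted p = 3.14e-10). Its direction is uncertain, since 1151 bases of its exons overlap those of Dvl2, a Wnt signalling gene on the opposite strand, and the sources used here do not say whether counting used strand. Dvl2 had 90.0% as many reads as Acadvl, and averaged 56.9 ± 2.17 CPM in baicalin and 82.0 ± 2.87 CPM in DMSO, a fall. The sum of both was 146 ± 3.78 CPM in baicalin and 149 ± 3.56 CPM in DMSO (SD, n = 3 each), and the groups overlapped. With length and GC trends removed the log2 fold change of Acadvl was 0.16, against 0.41 with TMM alone.

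The electron transfer flavoprotein carries electrons from the dehydrogenases to ubiquinone. Its subunit genes Etfa and Etfb were both lower, Etfa at 106 ± 2.52 CPM in baicalin and 121 ± 2.61 CPM in DMSO (log2 fold change -0.20) and Etfb at 12.0 ± 1.37 CPM in baicalin and 15.0 ± 0.688 CPM in DMSO (log2 fold change -0.31). Etfb lost its call without baicalin replicate 3 (adjusted p = 0.0641), and the ratio of Etfa to Etfb overlapped between the groups, at 8.81 in baicalin and 8.08 in DMSO. Etfdh, the ubiquinone oxidoreductase that accepts these electrons, was higher at 80.8 ± 1.24 CPM in baicalin and 70.6 ± 0.366 CPM in DMSO (log2 fold change 0.19, SD and n = 3 each). Exons of Etfdh overlap those of 4930579G24Rik on the opposite strand over 278 bases, and that gene had 6.38% as many reads and was not called.

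At the hydratase, dehydrogenase and thiolase steps 3 of 6 members were higher, 0 were lower and 3 were not called. Hadha and Hadhb encode the alpha and beta subunits of the trifunctional protein, which completes the spiral for long chains. Hadha averaged 219 ± 1.56 CPM in baicalin and 228 ± 6.27 CPM in DMSO and was not called (95% interval of the log2 fold change -0.14 to 0.015, adjusted p = 0.16). Hadhb averaged 63.2 ± 3.45 CPM in baicalin and 62.3 ± 2.68 CPM in DMSO and was not called either (95% interval -0.08 to 0.12, adjusted p = 0.761). The ratio of Hadha to Hadhb was 3.47 in baicalin and 3.67 in DMSO, with overlapping groups (exact permutation p = 0.2).

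These 2 genes stand head to head on chromosome 5, with 85 bases between their annotated starts. The Hadhb promoter window is shown because it spans that gap between the 2 subunit genes, neither of which was called, with the 85 bases between the GENCODE gene starts in capitals (chr5:30155003-30155302, plus strand, GRCm38.p6). It holds none of the searched motifs.
Hadhb: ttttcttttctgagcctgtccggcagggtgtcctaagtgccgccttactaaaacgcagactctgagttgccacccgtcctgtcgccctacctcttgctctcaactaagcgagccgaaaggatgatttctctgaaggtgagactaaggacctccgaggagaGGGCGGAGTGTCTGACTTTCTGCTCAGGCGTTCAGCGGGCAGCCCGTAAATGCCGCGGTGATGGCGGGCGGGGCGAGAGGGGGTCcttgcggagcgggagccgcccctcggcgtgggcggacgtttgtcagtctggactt

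Reads of Hadhb can also be split with Gm13910, a processed pseudogene on chromosome 2 (108948806 to 108950233, plus strand), which differs from the Hadhb coding sequence at 3 of 1425 bases and had 38.8% as many reads. Their sum was 87.0 ± 4.09 CPM in baicalin and 87.1 ± 3.55 CPM in DMSO, so the pair did not separate the groups either.

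Echs1, the short-chain enoyl-CoA hydratase, was higher at 49.7 ± 2.06 CPM in baicalin and 42.5 ± 1.80 CPM in DMSO (log2 fold change 0.23). Its exons overlap those of Paox on the opposite strand over 142 bases, and Paox, with 23.6% as many reads, was not called. Hadh, the short-chain 3-hydroxyacyl-CoA dehydrogenase, was higher at 165 ± 5.01 CPM in baicalin and 144 ± 2.46 CPM in DMSO (log2 fold change 0.19). Hsd17b10, a matrix dehydrogenase of isoleucine breakdown that is also a subunit of mitochondrial RNase P, had 67.4, 63.5 and 68.3 CPM in baicalin, against 48.3, 48.9 and 47.9 CPM in DMSO. Each baicalin library was above each DMSO library, and the mean rise was 1.37-fold (log2 fold change 0.46, SE 0.05, adjusted p = 1.13e-10), and its log2 fold change was 0.20 with length and GC trends removed. Acaa2, the thiolase that releases acetyl-CoA, averaged 153 ± 8.06 CPM in baicalin and 161 ± 5.15 CPM in DMSO, with overlapping groups and no call (95% interval of the log2 fold change -0.17 to 0.003, adjusted p = 0.089), though it was called lower in 4 of the alternative settings.

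Double bonds need auxiliary enzymes, of which 2 of 3 were higher. Decr1, the dienoyl-CoA reductase, averaged 90.2 ± 1.48 CPM in baicalin and 78.6 ± 2.71 CPM in DMSO (log2 fold change 0.20). Eci1, the mitochondrial enoyl-CoA isomerase, averaged 42.6 ± 0.557 CPM in baicalin and 35.8 ± 2.57 CPM in DMSO (log2 fold change 0.25), a call that did not survive removal of length and GC trends (-0.017). Eci2, an isomerase found in peroxisomes too, averaged 94.6 ± 1.54 CPM in baicalin and 91.5 ± 0.248 CPM in DMSO and was not called (95% interval of the log2 fold change -0.04 to 0.14, adjusted p = 0.37).

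The acyl-CoA thioesterases, which split acyl-CoA back into fatty acid and CoA, summed to 137 ± 4.98 CPM in baicalin and 103 ± 3.80 CPM in DMSO, a ratio of 1.33, and 3 of the 4 rose. Acot1 (ENSMUSG00000072949, chromosome 12, 84009490 to 84018371, plus strand), the cytosolic form, had 25.3, 29.0 and 23.6 CPM in the baicalin libraries, against 11.0, 9.48 and 10.3 CPM in the DMSO libraries. Every baicalin library held more than any DMSO library by a wide margin. The rise was 2.52-fold (log2 fold change 1.34, SE 0.10, adjusted p = 9.81e-18), the largest among the 32 tested members.

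Acot2 (ENSMUSG00000021226, chromosome 12, 83987861 to 83993873, plus strand), its neighbour on the chromosome, whose protein lies in the mitochondrial matrix, had 39.5, 42.2 and 44.3 CPM in baicalin, against 24.7, 27.7 and 26.3 CPM in DMSO. It rose 1.6-fold (log2 fold change 0.68, SE 0.07, adjusted p = 2.52e-12), and by 0.42 on the log2 scale with length and GC trends removed. The ratio of Acot2 to Acot1 reads was 1.62 in baicalin and 2.55 in DMSO, with no overlap (exact permutation p = 0.1, adjusted 0.144).

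The split of reads between the pair is uncertain, because their coding sequences are 95.6% identical over 1236 aligned bases. The longest stretch they share is 273 bases, from base 887 of the Acot1 and base 1010 of the Acot2 coding sequence in GENCODE M21, and it is printed because a read that lies wholly within it matches both genes equally well.
Acot1 and Acot2: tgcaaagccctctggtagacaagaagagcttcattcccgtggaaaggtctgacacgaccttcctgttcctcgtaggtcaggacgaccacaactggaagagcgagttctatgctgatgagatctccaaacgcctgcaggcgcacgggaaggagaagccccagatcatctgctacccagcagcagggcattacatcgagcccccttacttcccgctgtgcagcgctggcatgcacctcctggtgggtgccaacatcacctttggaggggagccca

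Of the 50-base words in their transcripts, 23.9% of those of Acot1 and 24.6% of those of Acot2 occur in the other gene. The summed level, which does not depend on that split, was 68.0 ± 3.24 CPM in baicalin and 36.5 ± 0.714 CPM in DMSO (SD, n = 3 each), a log2 ratio of 0.90 with no overlap. Acot9, a mitochondrial thioesterase, was higher at 47.8 ± 0.904 CPM in baicalin and 40.5 ± 3.11 CPM in DMSO (log2 fold change 0.24), and Acot13, a small thioesterase at the mitochondrion, was lower at 20.95 ± 1.41 CPM in baicalin and 25.6 ± 2.37 CPM in DMSO (log2 fold change -0.29).

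Both ketone body enzymes were lower. Acat1, the mitochondrial acetoacetyl-CoA thiolase, had 82.1, 75.2 and 79.7 CPM in baicalin, against 95.4, 99.4 and 97.3 CPM in DMSO, and fell by 0.30 on the log2 scale (SE 0.05, adjusted p = 2.46e-07). Oxct1, the transferase that lets tissues other than liver use acetoacetate, had 130.1, 125 and 121 CPM in baicalin, against 135, 142 and 131 CPM in DMSO. The highest baicalin library almost met the lowest DMSO library, and this fall (log2 fold change -0.12, adjusted p = 0.0192) lost its call without DMSO replicate 2 (adjusted p = 0.158), without baicalin replicate 2 (0.0851) and without baicalin replicate 3 (0.172), as it did on FPKM and with no count filter (up to 0.206). The ratio of Oxct1 to Acat1 was 1.59 in baicalin and 1.39 in DMSO, with no overlap.

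Of the 13 within-library ratios, which need no scaling between libraries, 9 did not overlap between the groups. These were Cpt1a to Cpt2, Cpt2 to Slc25a20, the ratios of Acadm, Acadvl and Acad9 to Acadl, Eci1 to Eci2, Acot2 to Acot1, Ppargc1a to Ppargc1b and Oxct1 to Acat1. All 9 reached the smallest p the design allows, 0.1, and no adjusted p was under 0.144. No such count over other gene pairs is at hand, and the levels of single genes did not overlap for 70.2% of all tested genes. Length and GC trends were not removed from the ratios. With those trends removed, the log2 fold changes of single genes nearly met for Eci1 (-0.017) and Eci2 (-0.013). They drew closer for Cpt1a (-0.004) and Cpt2 (0.11), and stayed apart for Acadm (-1.10) and Acadl (-0.18).

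**Figure D4:**
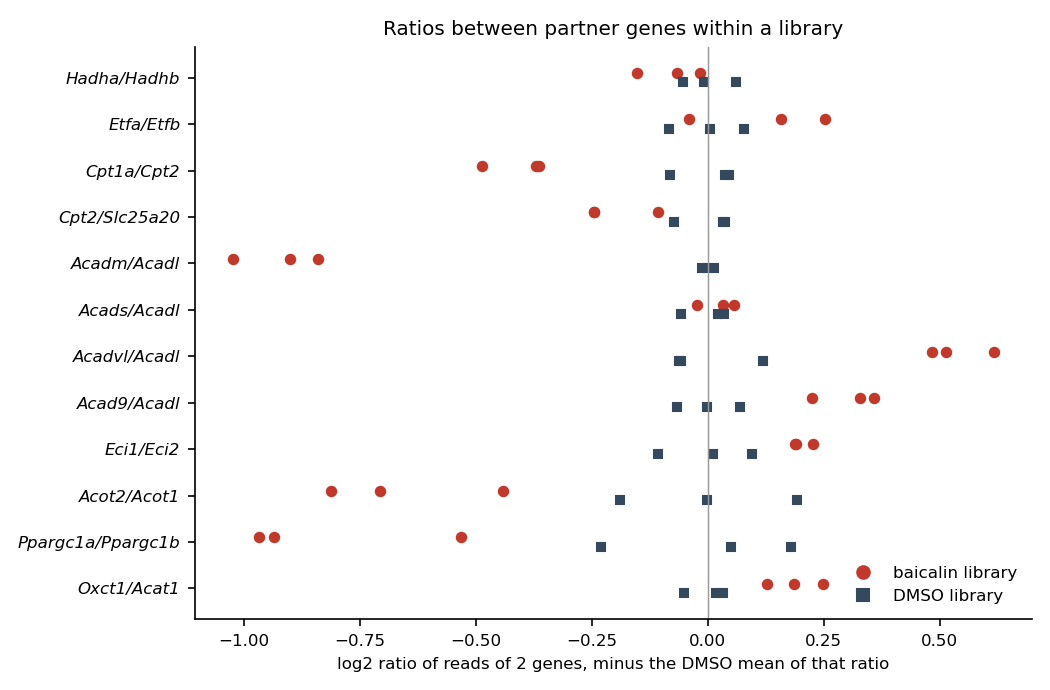
Log2 ratio of the reads of 2 genes within a library, minus the DMSO mean of that ratio, for 12 pairs (circles, 3 baicalin libraries; squares, 3 DMSO libraries; the ratio of Ppard to Ppara is left out because Ppara had under 10 reads a library). The ratio of Acadm to Acadl lies about 0.92 below its DMSO mean and those of Hadha to Hadhb, Etfa to Etfb and Acads to Acadl overlap.

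Per length, Acadl was the most abundant member in both groups, at 123 ± 6.42 FPKM in baicalin and 134 ± 4.82 FPKM in DMSO, followed by Acaa2 at 103 ± 5.76 FPKM in baicalin and 107 ± 3.61 FPKM in DMSO and by Cpt1a at 68.0 ± 0.101 FPKM in baicalin and 69.8 ± 1.70 FPKM in DMSO (SD, n = 3 each). Acadm was the 17th of 34 in baicalin and the 5th in DMSO, and Ppargc1a, Ppargc1b, Ppara and Cpt1b were the lowest 4 in both groups. For 96.4% of expressed genes the deposited FPKM divides by the length of all annotated exons together, to within 10%. Genes with long rare exons are therefore set low, as in Echs1, where that length is 8286 bases and the main transcript 1557, so that its level was 6.11 FPKM but 31.9 CPM per kilobase of main transcript in baicalin. Cpt1a and Eci1 are exceptions. The FPKM of Cpt1a divides by about 4300 bases, near its main transcript of 4317, where its exons together span 7642. That of Eci1 divides by about 1091 bases, near its main transcript of 1137, where its exons together span 2127. Per kilobase of main transcript Cpt1a was the 6th in both groups, and Acadm the 11th in baicalin and the 4th in DMSO.

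**Figure D5:**
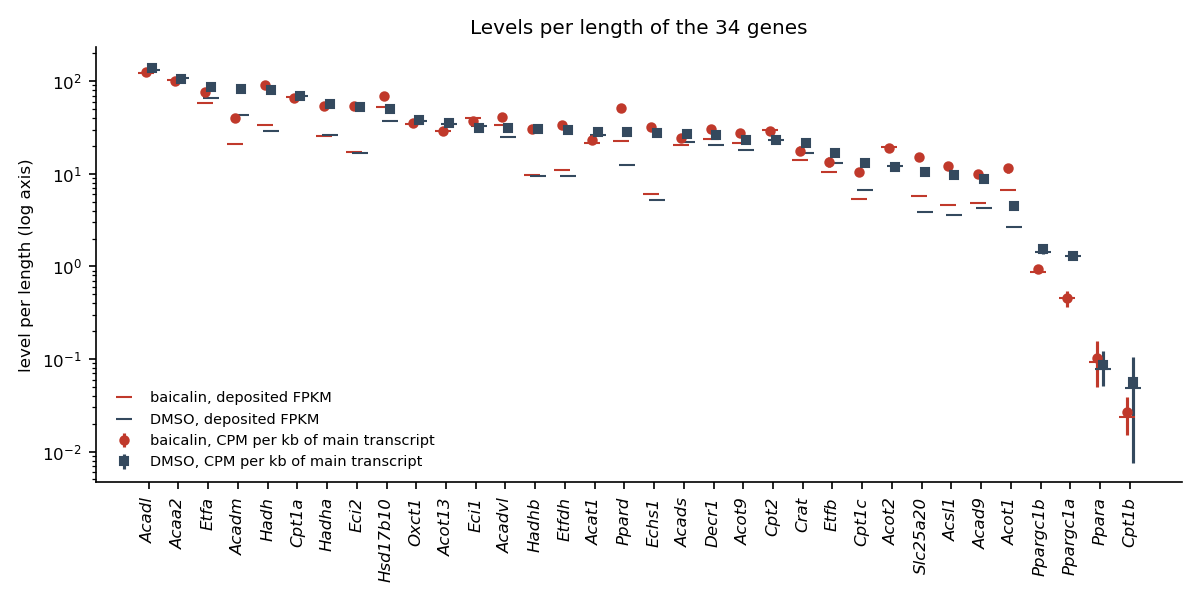
Level per length of the 34 genes on a log axis, as CPM per kilobase of the main transcript (circles, baicalin; squares, DMSO; bars, SD of n = 3) and as mean deposited FPKM (dashes), ordered by the DMSO level. Acadl and Acaa2 lead, and Ppara and Cpt1b lie near 0.1 and below.

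Around the pathway, genes were taken from 8 lists, chosen with earlier results of these data known, and their counts stand beside 33.6% higher, 34.1% lower and a median log2 fold change of 0.001 over all tested genes. Carnitine supply was split, with 3 higher and 2 lower of 6 tested. The plasma membrane carnitine transporter Slc22a5 fell to 20.7 ± 1.37 CPM in baicalin, against 34.5 ± 4.04 CPM in DMSO, and Tmlhe, the first enzyme of carnitine synthesis, fell by 0.23 on the log2 scale. Aldh9a1, a later enzyme of that synthesis, rose by 0.26 on the log2 scale, and was not called with length and GC trends removed (adjusted p = 0.0634). Of the other acyl-CoA synthetases, thioesterases and acyl-CoA binding proteins 7 were higher and 3 lower of 16, with a median log2 fold change of 0.16. Acsl4, a synthetase that prefers arachidonic acid, rose to 252 ± 7.47 CPM in baicalin, against 149 ± 6.58 CPM in DMSO, Acsl3 of the lipid droplet and endoplasmic reticulum rose by 0.75 and the fatty acid transport protein Slc27a4 by 0.63 on the log2 scale, while Acbd5, a peroxisomal acyl-CoA binding protein, fell by 0.67 (-0.12 and not called with length and GC trends removed). The log2 fold change of Acsl4 was 1.21 with those trends removed, against 0.76 with TMM alone.

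Other mitochondrial acyl-CoA dehydrogenases and the genes that supply their flavin leaned lower, with 5 higher and 9 lower of 19 and a median of -0.19. Acadsb, the short and branched-chain dehydrogenase, fell to 49.4 ± 1.01 CPM in baicalin, against 79.6 ± 1.65 CPM in DMSO, and Acad12 fell by 0.81 on the log2 scale. Ecsit and Tmem126b, which assemble complex I together with Acad9, moved in opposite directions, Ecsit by 0.65 and Tmem126b by -0.61, and the riboflavin kinase Rfk rose by 0.48. With length and GC trends removed the log2 fold change of Acadsb was -0.38, against -0.69 with TMM alone, and that of Ecsit 0.38. Among the odd-chain, ketone body and other beta-oxidation enzymes 6 were higher and 7 lower of 23. Mecr, the enoyl reductase of mitochondrial fatty acid synthesis, rose to 16.0 ± 2.02 CPM in baicalin, against 10.3 ± 0.762 CPM in DMSO, and Aldh6a1, a dehydrogenase of valine breakdown, fell to 40.0 ± 1.35 CPM in baicalin, against 56.3 ± 0.666 CPM in DMSO. Their log2 fold changes were 0.64 and -0.49, and 0.38 and -0.26 with length and GC trends removed.

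Of the genes of malonyl-CoA and AMPK control 7 were higher and 1 lower of 20, with a median of 0.07. Acaca, which makes the malonyl-CoA that inhibits Cpt1a, rose to 90.2 ± 3.47 CPM in baicalin, against 65.3 ± 1.16 CPM in DMSO, and Mid1ip1, which activates that enzyme, rose by 0.45 on the log2 scale. The deacetylase Sirt1 fell by 0.56, and the mitochondrial Sirt3 rose by 0.34 (adjusted p = 0.0118), a call lost without baicalin replicate 3 (0.155), with library size alone (0.123) and on FPKM (up to 0.194). Among the transcriptional partners of PPAR and PGC-1 8 were higher and 17 lower of 34, a median of -0.15. Esrra, the nuclear receptor partner of PGC-1alpha, rose to 57.9 ± 2.62 CPM in baicalin, against 42.0 ± 1.53 CPM in DMSO, and the liver X receptor Nr1h3 and the lysosomal regulator Tfeb rose by 0.79 and 0.55 on the log2 scale. The phosphatidate phosphatase and coactivator Lpin1, the muscle transcription factor Mef2a and the nuclear receptor coactivator Ncoa3 fell by 0.87, 0.78 and 0.68 on that scale. With length and GC trends removed the log2 fold change of Acaca was 0.85, against 0.47 with TMM alone, and those of Mid1ip1, Nr1h3 and Mef2a were 0.17, 0.52 and -0.34.

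PPAR target genes outside the pathway were divided, with 10 higher and 11 lower of 23. Hilpda, a lipolysis inhibitor, stood at 123 ± 4.39 CPM in baicalin and 18.1 ± 1.27 CPM in DMSO, and the lipid droplet protein Plin2 at 1464 ± 67.0 CPM in baicalin and 633 ± 25.9 CPM in DMSO. Against these, Lpl, also given above as a fat cell marker, was at 490.3 ± 8.07 CPM in baicalin and 1441 ± 79.5 CPM in DMSO, and catalase, Cat, at 178 ± 4.13 CPM in baicalin and 397 ± 18.7 CPM in DMSO. Peroxisomal beta-oxidation, which shortens chains too long for mitochondria, counted 7 higher and 6 lower of 21. Abcd3 of the peroxisomal membrane rose by 0.64 on the log2 scale and Abcd4, whose protein acts at the lysosome in vitamin B12 transport, by 0.78. Amacr, a racemase that prepares branched chains for oxidation, was lower at 17.2 ± 0.996 CPM in baicalin and 21.3 ± 1.46 CPM in DMSO (SD, n = 3 each throughout).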

How the data were processed

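RNA was measured by poly-A sequencing in 6 libraries, and every result comes from 1 deposited table. The authors counted reads with featureCounts (1.5.0-p3, per the series design text) on mm10 (per the submitters' processing notes) and derived the deposited FPKM from counts and gene length, per the same design text. The sources used here do not give the aligner, annotation or strand setting. Of the gene identifiers 54495 are in GENCODE M21, which gave coordinates and exons, and 37 are not.

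Deposited counts were tested over all genes in edgeR 4.0.16 under R 4.3.3 (filterByExpr, TMM factors, robust quasi-likelihood, a treatment term alone), and adjusted after Benjamini and Hochberg over all tested genes, at 0.05. Intervals are at 95%, and intervals and floors (3 counts) cover the spread between libraries or counting error only. Ratios used counts plus 0.5 and exact two-sided permutation tests (scipy 1.17.1). Alternatives were DESeq2 1.42.0, limma-voom and limma-trend on FPKM (limma 3.58.1), other factors and filters, removal of lowess trends (span 0.3) with length and GC, the replicate number as a block, and each library left out.

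Within-group pairs of libraries differed beyond sampling noise (chi-square per degree of freedom 2.71 to 4.13), and none were merged. The members and lists were chosen with earlier results of these data known. The naming rule took all members, up to 3 called genes in each direction of a list (mean of 5 CPM or more), and genes that share reads with a member. Some genes that this rule takes are not reported here. Figures were drawn with matplotlib 3.10.9.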

Additional observations from a re-analysis of the deposited data

How the results depend on the processing

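Over the 17 alternative settings 15 of the 26 called members kept their call in every one and 11 lost it in at least 1, while 5 of the 6 others were called in at least 1. The count of members higher in baicalin, 15, was 8 with library size alone, and the number lower was 15 there instead of 11. The cause was not tested, beyond the shift of all genes that this scaling makes. Leaving out each library in turn gave 14 to 15 higher and 9 to 12 lower members, with 4424 to 4583 higher and 4397 to 4563 lower genes. With the replicate number as a block 15 members were higher and 11 lower, and 4660 genes were higher and 4731 lower, so the block changed no count of members. Deviations of same-numbered libraries from their group means correlated at 0.035, 0.037 and -0.002, so the numbers were not taken to pair the samples, and not every library correlated best with its own number. Some values changed sign. With length and GC trends removed the log2 fold change was -0.017 for Eci1, -0.013 for Eci2, 0.028 for Hadha and 0.026 for Acbd3. With library size alone it was -0.080 for Eci2 and -0.11 for Hadhb, and over the fits without 1 library Hadhb lay between -0.011 and 0.066, below 0 without DMSO replicate 3 and without baicalin replicate 2. The log2 ratio of Acads to Acadl, baicalin minus DMSO, lay between -0.008 and 0.044 in those fits, below 0 without DMSO replicate 2. The cause of these was not tested. Depth limits Ppara and Cpt1b, which had at most 9 reads in a library, and Ppargc1a and Ppargc1b, which had the widest errors.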
